A study of Mus musculus with 12 samples.

Results

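Epithelial cells keep an apical and a basolateral face with the help of 3 conserved protein modules and seal the border between those faces with tight junctions. The Crumbs and Par modules act on the apical side, the Scribble module acts on the basolateral side, and the apical modules and the Scribble module exclude each other. In a hepatocyte the apical face forms bile canaliculi between neighbouring cells, whereas a cholangiocyte, the epithelial cell of the bile duct, has a single apical face turned to a lumen. The 10 genes described here were taken by symbol from the count table: Crb3 of the Crumbs module; Pard3, Pard6b and Prkci of the Par module; Llgl2, Scrib and Dlg1 of the Scribble module; and Marveld2, Marveld3 and Tjp3 of the tight junction. All 10 were found among 53599 gene rows, and all 10 were among the 16210 genes that passed the filter on low counts.

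The data are RNA-seq counts of cells sorted from mouse livers, in 12 libraries with 3 in each of 4 groups, made to follow hepatocytes as they take on a biliary identity. All mice were labelled wild type, received the virus AAV8-TBG-Cre, whose Cre recombinase is driven by a hepatocyte promoter, and ate a diet with 0.1% DDC, a porphyrinogenic compound that injures bile ducts, for 8 weeks. All 4 groups thus shared this virus and diet, and no group was untreated. The reporter allele, the strain and the age are not given in the sources used here. Cells of hepatocyte origin were EGFP+: the early group was Cd24- Epcam-, the intermediate group Cd24+ Epcam- and the full group Cd24+ Epcam+. Resident biliary epithelial cells (BEC) were EGFP- Epcam+. The sources do not say whether replicates came from separate mice, so p-values measure the spread between these libraries.

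The sort markers followed the gates: Cd24a had 3.20 ± 2.16 CPM in early and 444 ± 75.8, 1074 ± 128 and 1073 ± 200 in the later groups, and Epcam had 0.592 ± 0.250, 18.8 ± 7.24, 254 ± 41.1 and 866 ± 35.6 CPM (SD, n = 3). Total counts ran from 15112893 to 19731887 per library. Levels are CPM (counts scaled to a common library total) scaled by TMM factors, which adjust for library composition and were 0.652 to 0.672 in early and 1.03 to 1.22 in the other groups. The mitochondrial share was 11.4% in early replicate 2 and between 2.20% and 6.001% in the others. Summed hepatocyte markers (8 of 8 found) lay between 94043 and 97685 CPM in early, 14391 and 18775 in intermediate, 3167 and 4150 in full and 1977 and 2607 in BEC. The 8 biliary markers lay between 963 and 1947, 9254 and 12158, 11576 and 14816, and 13827 and 17176 CPM. Spp1 made up most of that biliary sum (1237 ± 504, 9866 ± 1523, 11316 ± 1790 and 12144 ± 2026 CPM), whereas Krt19 had 0.111 ± 0.045, 2.21 ± 1.13, 118 ± 18.8 and 593 ± 105 CPM and Cftr 0.057 ± 0.049, 11.9 ± 5.07, 160 ± 34.7 and 251 ± 20.1 CPM (SD, n = 3). Among lists for other cells, 6 macrophage markers summed to between 22.3 and 23.3 CPM in early and between 132 and 146 in BEC, of which Csf1r alone had 3.94 ± 0.157 and 127 ± 6.69 CPM (SD, n = 3), while Cd68 had 14.0 ± 2.08 and 3.46 ± 1.09 and the other 4 had means of at most 3.98 CPM. In the same comparison, 6 stellate cell and fibroblast markers went from between 94.6 and 272 to between 48.8 and 86.2 CPM. The 6 endothelial markers went from between 13.8 and 20.6 to between 1.45 and 6.26 CPM. The sum of 3 erythroid markers reached 32.9 CPM in early and at most 3.17 elsewhere, nearly all of it Alas2 (24.3 ± 7.62 CPM in early; SD, n = 3), with Hbb-bs and Hba-a1 at or near 0; the B cell, T and NK cell and neutrophil lists stayed at or below 1.88 CPM, and Ms4a1 of the B cell list was at 0 in all libraries. The part of these cells in the results was not tested, and in bulk samples fewer cells of a type and less RNA per cell cannot be told apart.

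Genes were compared with edgeR's quasi-likelihood test on all 12 libraries, and a gene was called where its p, adjusted by Benjamini-Hochberg over every gene tested, was under 0.05. All 10 genes differed among the 4 groups by the F test of that fit (adjusted p from 1.45e-09 for Marveld3 to 0.0444 for Dlg1), where 75.6% of all genes did. Relative to the TMM scale, 6 of the 10 rose and 1 fell from early to intermediate, 5 rose and 0 fell from intermediate to full, and 4 rose and 1 fell from full to BEC. Leaving out 1 library took the second-step rises to 3 (without full replicate 1 or 2). The single falls at the first step and the third were each lost in 9 of 12 such fits. That at the first step was kept without intermediate replicate 2, BEC replicate 1 or BEC replicate 3, and that at the third without any 1 early library. Both falls were lost with no filter on low counts. Over all genes, 54.4% were called at the first step (28.7% higher and 25.7% lower), 40.7% at the second (20.8% and 19.8%) and 21.3% at the third (10.7% and 10.6%). The median log2 fold changes of the 10 genes at these steps were 0.45, 0.34 and 0.39, against 0.06, 0.01 and 0.00 over all genes. The groups did not overlap for 8, 7 and 8 of the 10, and for 58.7%, 55% and 39.6% of all genes. Pard6b, Prkci, Llgl2 and Marveld3 were called higher at both of the first 2 steps, as were 12.8% of all genes, and all but Marveld3 of these at all 3 steps, as were 3.31%. With total counts as the scale in place of TMM factors, the median over all genes moved to 0.72, 0.21 and 0.01, and 9, 8 and 4 of the 10 genes were called higher with 0, 0 and 1 lower.

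**Figure D1:**
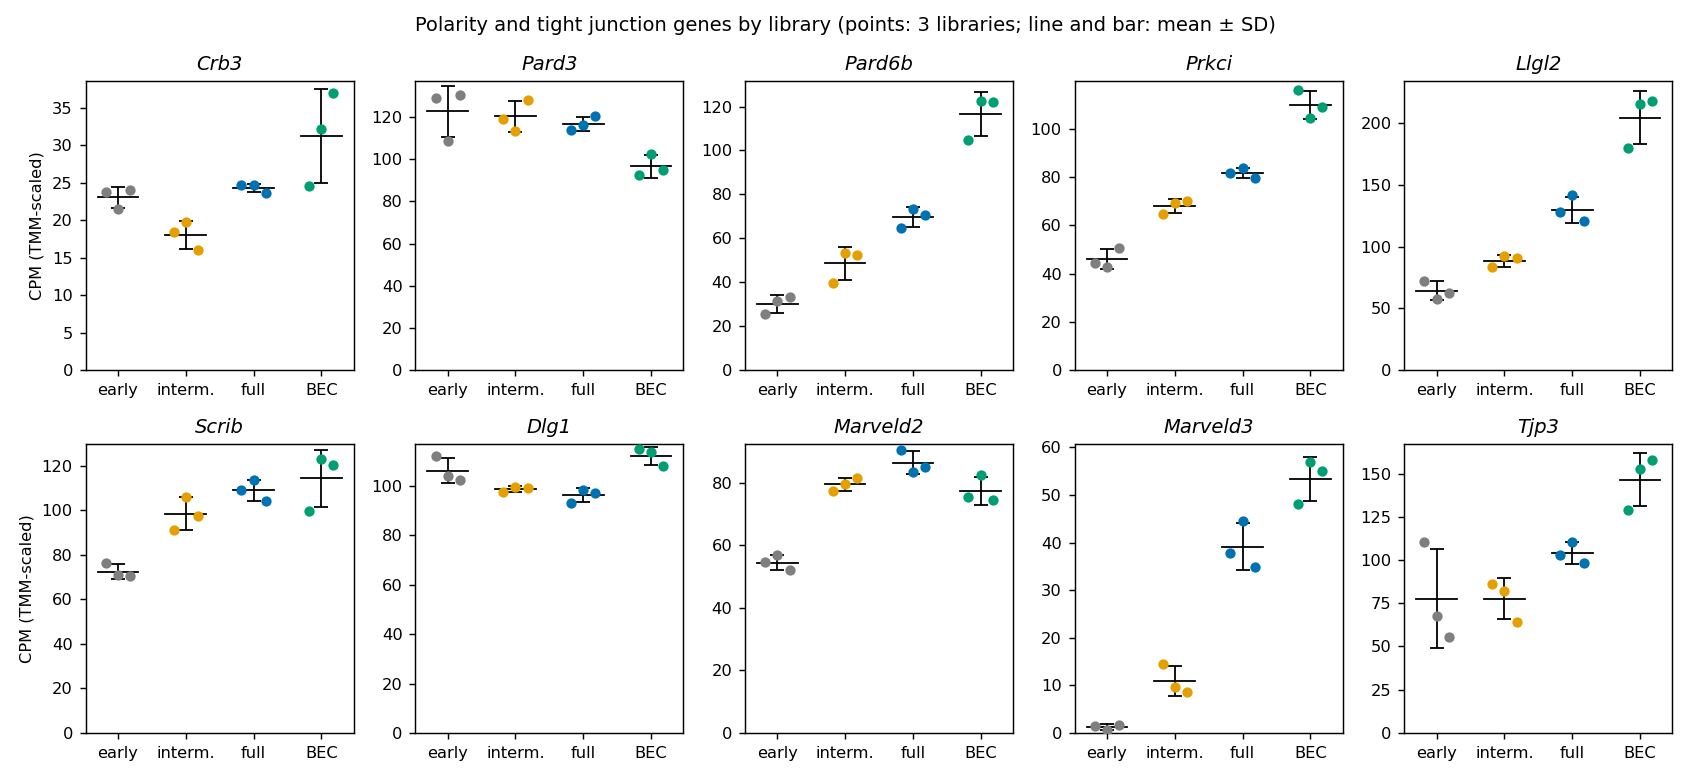
Level of each of the 10 genes (y axis, TMM-scaled CPM, from 0) in the 4 groups (x axis), with 1 point per library and the mean ± SD as a line and bar. Pard6b, Prkci, Llgl2 and Marveld3 climb through the 4 groups, Marveld2 and Scrib step up between early and intermediate, and Pard3 and Dlg1 keep within a narrow range.

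The stretches upstream of 3 of these genes are printed because the data show them at higher levels in BEC than in early cells and because each holds the E-box CAGGTG, the hexamer bound by the Snail and Zeb families of repressors of epithelial genes. Other genes of the set differ. On the TMM scale Pard3 was lower in BEC than in early, yet 1 of its upstream stretches held 3 matches. Prkci was higher in BEC, yet its stretch held 0. Whether such factors act on these genes was not tested. They come from RefSeq (build GRCm38.p6; the counts were made on another build), lie within the 250 bases before an annotated start, and are written 5′ to 3′ with the E-box on either strand in capitals. For Crb3, the last 60 bases were left out because another annotation, GENCODE M21, already places an exon there. The Crb3 stretch is chr17:57061951-57062140 on the plus strand, the Pard6b stretch chr2:168080754-168081003 on the plus strand and the Tjp3 stretch chr10:81291582-81291831 on the minus strand.
Crb3: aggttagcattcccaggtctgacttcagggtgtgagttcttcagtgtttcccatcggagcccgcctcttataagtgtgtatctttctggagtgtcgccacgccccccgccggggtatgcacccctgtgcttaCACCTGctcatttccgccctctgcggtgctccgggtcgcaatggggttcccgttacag
Pard6b: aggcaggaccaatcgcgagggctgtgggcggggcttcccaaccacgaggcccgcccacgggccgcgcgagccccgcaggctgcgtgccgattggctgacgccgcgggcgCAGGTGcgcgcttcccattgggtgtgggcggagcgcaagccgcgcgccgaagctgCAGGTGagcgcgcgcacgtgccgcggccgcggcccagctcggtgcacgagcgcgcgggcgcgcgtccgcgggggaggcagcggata
Tjp3: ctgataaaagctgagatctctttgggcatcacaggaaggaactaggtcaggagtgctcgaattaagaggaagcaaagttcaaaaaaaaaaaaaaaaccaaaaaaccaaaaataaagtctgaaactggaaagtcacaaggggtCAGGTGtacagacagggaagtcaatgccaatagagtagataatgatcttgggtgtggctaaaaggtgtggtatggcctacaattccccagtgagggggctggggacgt

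Windows from 250 bases before to 50 after a start were found for 7 of the 10 genes, 14 windows in all. The E-box (CAGGTG or its complement CACCTG) lay in 9 of the 14 windows, compared with 19.0% of the 14804 windows of all genes tested and 20.2% of all windows in the table. By gene, at least 1 window of Crb3, Dlg1, Marveld2, Pard3, Pard6b and Tjp3 held it, 6 of 7, against 21.9% of tested genes. A gene with more windows has more chances to hold a match, and the 7 genes had 14 windows where 11575 tested genes had 14804. For Dlg1 and Marveld2, 0 matches lay within the 250 bases before the start. Both Crb3 windows and 1 of the Pard3 windows held 3 matches within the 250 bases before the start, and 0.247% of all windows held 3 or more. The Crb3 windows overlap and share these 3 matches, of which only 1 lies in the stretch printed above, before the GENCODE exon. The other motifs searched lay in fewer windows: the TEAD core GGAATG lay in 2 of the 14 windows (Crb3 and Prkci, 12.5% of windows of tested genes), the Hnf4a-type hexamer CAAAGT in 1 (Tjp3, 12.4%), and the Grainyhead-like core AACCGGTT in 0 (0.209%). These are letter matches in a fixed window, and windows of 1 gene overlap in part.

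Crb3 encodes the small transmembrane Crumbs protein of most epithelia, which marks the apical membrane and binds Pals1. Its levels were 23.7, 21.5 and 23.96 CPM in early replicates 1 to 3, 18.4, 19.7 and 16.0 in intermediate, 24.6, 24.6 and 23.7 in full, and 24.6, 32.2 and 36.9 in BEC. The intermediate libraries lay below those of every other group, and the full and BEC groups overlapped. The drop from early to intermediate was small (log2 fold change -0.35, SE 0.14, edgeR adjusted p 0.0489). It was lost when any of 9 single libraries was left out (adjusted p up to 0.175, without intermediate replicate 3; the others were early 1, 2 and 3, intermediate 1, full 1, 2 and 3 and BEC 2) and turned to 0.31 (edgeR adjusted p 0.0698) with total counts as the scale. The rise from intermediate to full (0.43, SE 0.14, edgeR adjusted p 0.0240) was lost without intermediate replicate 3 (0.34, adjusted p 0.114), full replicate 1 (adjusted p 0.0591) or full replicate 2 (adjusted p 0.0658). BEC was not called against full (0.36, 95% confidence interval 0.070 to 0.65, edgeR adjusted p 0.0780) except without BEC replicate 1 (0.51, adjusted p 0.00733). BEC was higher than intermediate (0.79, SE 0.14, edgeR adjusted p 0.000280) and than early (0.44, edgeR adjusted p 0.0113), the latter not without BEC replicate 3 (0.30, adjusted p 0.0689).

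In the Par module, Pard6b and Prkci rose at every step while Pard3 rose at none (with total counts as the scale it rose at the first). Pard6b encodes the adaptor that tethers atypical protein kinase C to Cdc42 and Par3. Early libraries had 25.5, 31.6 and 33.3 CPM, intermediate 39.9, 53.4 and 52.5, full 64.8, 73.5 and 70.7, and BEC 105, 122 and 122. The 4 groups did not overlap, and the 3 steps had log2 fold changes of 0.69 (SE 0.13), 0.52 (SE 0.13) and 0.74 (SE 0.12), with edgeR adjusted p of 0.000497, 0.00478 and 0.000655. From early to BEC the rise was 3.87-fold (edgeR adjusted p 1.04e-08), and its direction held in every alternative run.

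Prkci encodes the iota form of atypical protein kinase C, the catalytic subunit of the module. Its levels were 44.5, 42.7 and 50.7 CPM in early, 64.7, 69.4 and 70.1 in intermediate, 81.5, 83.7 and 79.8 in full and 116, 104 and 109 in BEC. Again no neighbouring groups overlapped. The steps were 0.57 (SE 0.085, edgeR adjusted p 7.19e-05), 0.26 (SE 0.083, edgeR adjusted p 0.0214) and 0.43 (SE 0.082, edgeR adjusted p 0.00184), and BEC stood 2.39-fold above early. The middle step was lost without intermediate replicate 1 (adjusted p 0.0834) or 2 (0.0519) and without full replicate 1 (0.0503) or 2 (0.0750), and with no filter on low counts (0.106).

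Pard3 encodes the scaffold that recruits the kinase and Par6 to the junction. It had 129, 109 and 131 CPM in early, 119, 113 and 128 in intermediate, 114, 116 and 120 in full and 92.5, 102 and 94.7 in BEC. The 3 hepatocyte-derived groups overlapped, with log2 fold changes of -0.029 (95% confidence interval -0.22 to 0.16) and -0.044 (-0.24 to 0.15). With total counts as the scale these were 0.63 (adjusted p 3.03e-05) and 0.16 (adjusted p 0.176). BEC libraries lay below all others. Against full the difference was -0.27 (SE 0.089, edgeR adjusted p 0.0443), a call lost when any of the 9 intermediate, full or BEC libraries was left out (adjusted p up to 0.147, without full replicate 3), with median-of-ratios factors (0.0575) or with no filter on low counts (0.0949). Against early it was -0.35 (SE 0.090, edgeR adjusted p 0.00328), which became 0.52 (adjusted p 0.000115) with total counts as the scale.

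**Figure D2:**
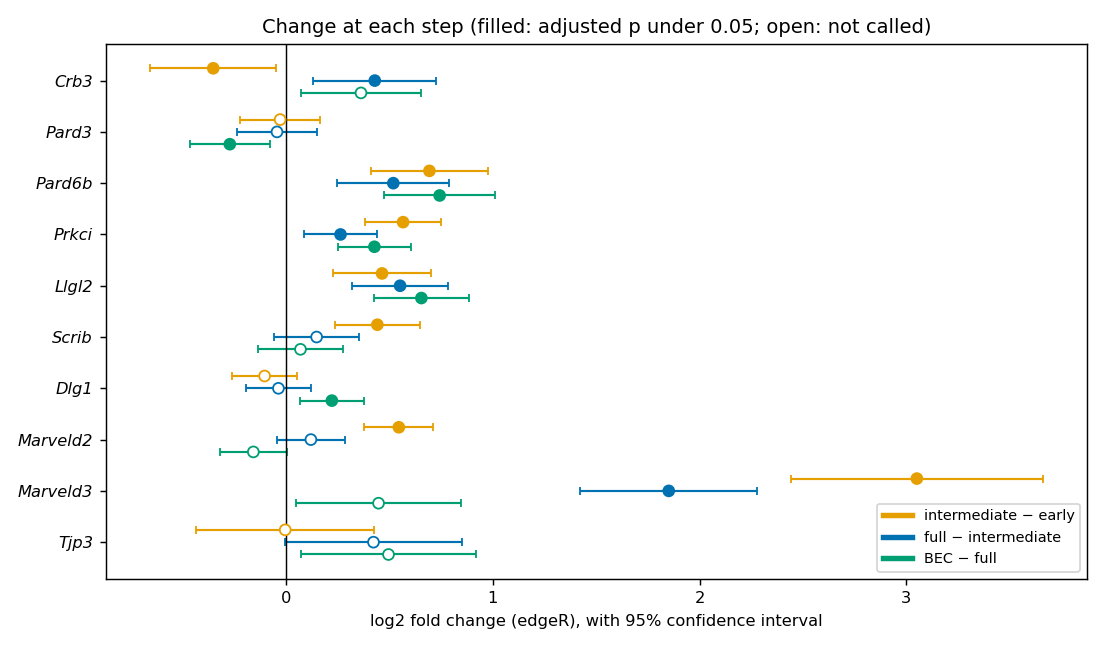
Log2 fold change (x axis, edgeR, TMM scale) of each gene (y axis) at the 3 steps, with 95% confidence intervals; filled points were called and open points were not. The changes of Marveld3 at the first 2 steps, 3.05 and 1.85, exceed all others, and most of the rest lie between -0.35 and 0.74.

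The Scribble module holds the basolateral side against the apical modules. Llgl2, a Lgl protein that is phosphorylated by atypical protein kinase C and so kept off the apical membrane, had 72.5, 57.5 and 62.6 CPM in early, 83.2, 92.1 and 90.5 in intermediate, 128, 141 and 120 in full and 180, 215 and 218 in BEC. No 2 groups overlapped. The steps were 0.46 (SE 0.11, edgeR adjusted p 0.00261), 0.55 (SE 0.11, edgeR adjusted p 0.00104) and 0.65 (SE 0.11, edgeR adjusted p 0.000532), and BEC was 3.18-fold above early. These calls and directions held in every alternative run.

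Scrib encodes the large scaffold that gives the module its name. It had 76.2, 70.7 and 70.3 CPM in early, 91.3, 106 and 97.5 in intermediate, 109, 113 and 104 in full and 99.6, 123 and 120 in BEC. The early libraries lay below all others, and the 3 later groups overlapped. It rose at the first step (0.44, SE 0.096, edgeR adjusted p 0.00147) and gave 0.15 (95% confidence interval -0.057 to 0.35) and 0.069 (-0.13 to 0.27) at the later steps, the former called with total counts as the scale (0.35, adjusted p 0.00985). Dlg1, a scaffold of PDZ domains in the same module, varied least of the 10, with 112, 104 and 103 CPM in early, 97.5, 99.8 and 99.2 in intermediate, 93.2, 98.4 and 97.3 in full and 115, 114 and 108 in BEC. It was called higher in BEC than in full (0.22, SE 0.072, edgeR adjusted p 0.0423) and than in intermediate (0.18, SE 0.072, edgeR adjusted p 0.0462). Both calls were lost with no filter on low counts (adjusted p 0.420 and 0.368) and in fits of only the 6 libraries compared (0.0640 and 0.0880). The call against full was lost in 10 of 12 fits that each left out 1 library (adjusted p up to 0.147, without full replicate 1; only the fits without early replicate 1 or 2 kept it), and that against intermediate in 11 of 12 (all but the fit without early replicate 1; up to 0.127, without BEC replicate 2). Between early and intermediate its value was -0.10 (edgeR adjusted p 0.244), and 0.56 (adjusted p 1.13e-05) with total counts as the scale.

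Marveld3 moved most of the 10. It encodes a membrane-spanning tight junction protein related to occludin and tricellulin. Early libraries had 1.503, 0.637 and 1.70 CPM, which rest on 19, 7 and 21 counts; intermediate had 14.5, 9.64 and 8.49 CPM, full 37.8, 44.6 and 34.9, and BEC 48.1, 56.8 and 54.9. The 4 groups did not overlap. It rose 8.29-fold at the first step (3.05 on the log2 scale, SE 0.28, edgeR adjusted p 8.47e-07) and 3.61-fold at the second (1.85, SE 0.20, edgeR adjusted p 6.92e-06). BEC exceeded full by 0.45 without being called (SE 0.18, 95% confidence interval 0.049 to 0.85, edgeR adjusted p 0.113), although the fit of those 6 libraries alone called it (adjusted p 0.0160), as did the fit without intermediate replicate 1 (adjusted p 0.0468). From early to BEC the rise was 40.8-fold (edgeR adjusted p 4.66e-10).

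Tjp3 encodes ZO-3, a plaque protein that links junction membrane proteins to actin. Its levels were 110, 67.7 and 55.2 CPM in early, 86.3, 82.1 and 64.1 in intermediate, 103, 111 and 98.0 in full and 129, 152 and 158 in BEC. Early replicate 1 lay at the level of the full group and the other early libraries below it. In the fit of all libraries Tjp3 was called at no single step: -0.0048 (95% confidence interval -0.44 to 0.43), 0.42 (-0.0042 to 0.85, edgeR adjusted p 0.107) and 0.50 (0.071 to 0.92, edgeR adjusted p 0.0981). With the replicate number as a block the third step was called (0.51, edgeR adjusted p 0.0464), and so was full against early (0.45, edgeR adjusted p 0.0362, against 0.42 and 0.0749 without the block). Without early replicate 1, the steps were 0.34 (adjusted p 0.0607), 0.42 (adjusted p 0.0141) and 0.49 (adjusted p 0.00923), and full against early was 0.76 (adjusted p 0.000348). The third step was also called without early replicate 3 (0.49, adjusted p 0.0461). The second step and the third were called in fits of their own 6 libraries (adjusted p 0.0136 and 0.00345) and with no filter on low counts (0.0144 and 0.0115; full against early 0.00396), and the first and second with total counts as the scale (0.67 and 0.62, adjusted p 0.00878 and 0.0202; full against early 1.29, adjusted p 4.02e-05). BEC was above early in the fit of all libraries (0.91, SE 0.20, edgeR adjusted p 0.000938) and above intermediate (0.92, SE 0.20, edgeR adjusted p 0.00150).

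Marveld2 encodes tricellulin, which sits where 3 cells meet. It had 54.7, 56.7 and 52.0 CPM in early, 77.3, 79.6 and 81.4 in intermediate, 90.5, 83.4 and 85.0 in full and 75.3, 82.3 and 74.3 in BEC. The rise was confined to the step from early to intermediate among the 3 steps tested (0.55, SE 0.077, edgeR adjusted p 4.44e-05); the later steps gave 0.12 (edgeR adjusted p 0.233) and -0.16 (edgeR adjusted p 0.176), of which the former was called with total counts as the scale (0.32, adjusted p 0.00336). Full had the highest mean of the 4 groups, and BEC and intermediate overlapped (BEC minus intermediate -0.039, 95% confidence interval -0.20 to 0.12; 0.16 with total counts as the scale).

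Tricellulin is held at these corners by the angulins, encoded by Lsr, Ildr1 and Ildr2, which were in the list of related genes. Lsr, the angulin that is abundant in hepatocytes, fell through the 4 groups, which had 313 ± 27.7, 229 ± 12.3, 141 ± 10.8 and 112 ± 3.77 CPM (SD, n = 3), with steps of -0.45, -0.70 and -0.32 (edgeR adjusted p 0.000980, 4.35e-05 and 0.0223). Its first step was 0.21 (adjusted p 0.0502) with total counts as the scale, and the call at its last step was lost without full replicate 1, BEC replicate 2 or BEC replicate 3 (adjusted p up to 0.105). Ildr1 had at most 1 count in each early and intermediate library, then 9.79, 8.03 and 5.55 CPM in full and 60.9, 58.8 and 60.6 in BEC. That is at least 44.7-fold higher in full than in intermediate, against the level of 3 counts per library, and log2 2.95 higher in BEC than in full (SE 0.19, edgeR adjusted p 8.39e-07). Ildr2 had 126 ± 26.6, 91.4 ± 18.8, 78.0 ± 13.9 and 31.4 ± 3.93 CPM (SD, n = 3). Its drop from full to BEC was called (-1.31, edgeR adjusted p 0.000166), while the first step (-0.47, edgeR adjusted p 0.0439) was lost when any of 8 single libraries was left out (adjusted p up to 0.215, without early replicate 2; the others were early 3, intermediate 1 and 3, full 2 and 3 and BEC 1 and 2) and turned to 0.20 with total counts as the scale. It was also lost in the fit of only the 6 libraries compared (edgeR adjusted p 0.0622).

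**Figure D3:**
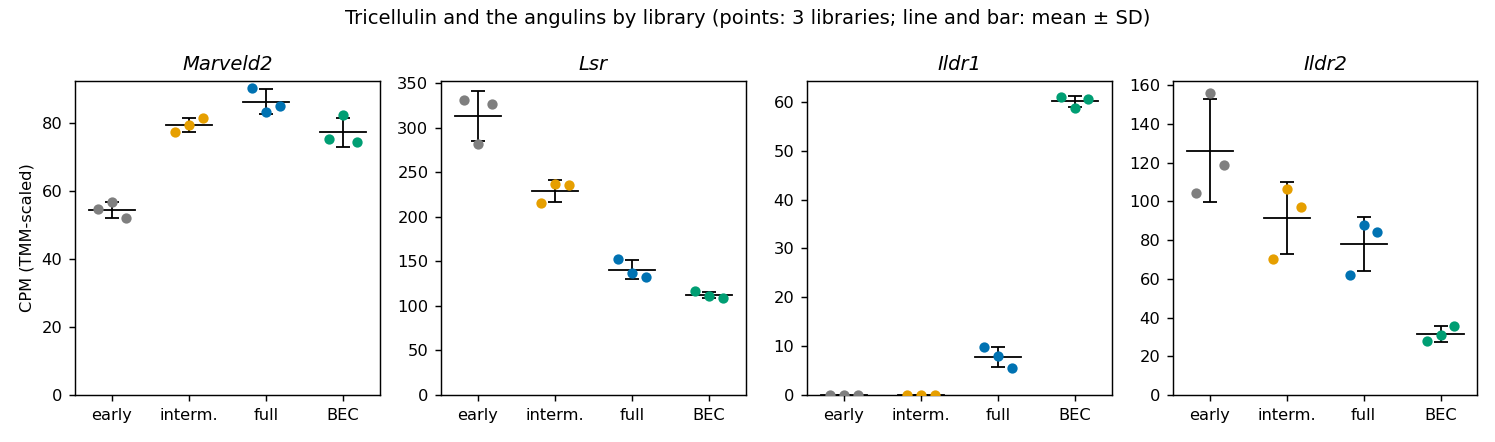
Levels (y axis, TMM-scaled CPM, from 0) of tricellulin (Marveld2) and the 3 angulin genes in the 4 groups, with 1 point per library and the mean ± SD. Lsr and Ildr2 are lower in BEC than in early, while Ildr1 is near 0 in early and intermediate, at 5.55 to 9.79 CPM in full and at 58.8 to 60.9 CPM in BEC.

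Ranked per kilobase of exon, to set genes of different length side by side, the order among the 10 shifted. Levels per kilobase use the joined length of all exons that GENCODE M21 gives for a gene, not that of the transcripts expressed. This length ran from 1564 bases for Crb3 to 10736 for Dlg1 and 14506 for Pard3, and the place of a gene depends on it. In early, Tjp3 was highest at 20.9 ± 7.77 CPM per kilobase, followed by Marveld2 (16.1 ± 0.710), Crb3 (14.7 ± 0.882) and Llgl2 (13.3 ± 1.57), and Marveld3 was lowest at 0.390 ± 0.172 (SD, n = 3). The Tjp3 libraries spread from 29.7 (replicate 1) to 14.9 (replicate 3), and in replicate 3 Marveld2 (15.4) and Crb3 (15.3) stood above it. In BEC, Llgl2 led at 42.2 ± 4.36, followed by Tjp3 at 39.4 ± 4.10, within that spread, and Pard6b at 34.3 ± 2.95, and Pard3 was lowest at 6.66 ± 0.362 (SD, n = 3). By group means, Pard6b thus went from place 7 to place 3 and Dlg1 from place 6 to place 9. The early places are less sure, since Pard6b libraries there (7.49 to 9.79) overlapped those of Prkci (7.70 to 9.13), Pard3 (7.50 to 9.01) and Dlg1 (9.56 to 10.4). Exons of Crb3 share 14 bases with Dennd1c and those of Tjp3 share 40 bases with Apba3, both on the opposite strand, and the sources do not state whether counting used strand.

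The share of 2 related transcripts within a library does not depend on scaling, so 5 of the 10 genes were also set against a paralog or partner. A total of 18 differences were tested by a 2-sided exact permutation test, for which 3 against 3 cannot go below p = 0.1. The 12 differences that reached this value had an adjusted p of 0.15 (Benjamini-Hochberg, over the 18). Llgl1, the other Lgl gene, had 30.9 ± 2.03, 79.4 ± 4.60, 99.4 ± 3.03 and 90.8 ± 9.04 CPM from early to BEC (SD, n = 3). The log2 ratio of Llgl2 to Llgl1 counts went from 1.05 ± 0.15 in early down to 0.16 ± 0.070 in intermediate, then up to 0.38 ± 0.12 in full and 1.17 ± 0.092 in resident cells (SD, n = 3), with no overlap at any step (exact p = 0.1 each). Intermediate libraries thus held more Llgl1 per Llgl2 transcript than early libraries.

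Tjp3 to Tjp1 (ZO-1) gave -0.77 ± 0.70, -1.58 ± 0.31, -1.42 ± 0.11 and -0.97 ± 0.19 (SD, n = 3), of which early replicate 1 alone was near 0; the first and last steps did not overlap (exact p = 0.1). Without early replicate 1 the first difference went from -0.81 to -0.41. The ratio of Prkci to Prkcz, the zeta form of the kinase, was 0.13 ± 0.098, 1.05 ± 0.16, 1.52 ± 0.072 and 1.22 ± 0.17 from early to BEC (SD, n = 3; exact p = 0.1 at each step, no overlap). Crb3 to its partner Pals1 (listed as Mpp5) went from -0.64 ± 0.17 to -1.14 ± 0.20 at the first step without overlap (exact p = 0.1) and was -0.93 ± 0.11 in full and -0.74 ± 0.27 in BEC (SD, n = 3). Marveld2 to occludin (Ocln) gave -0.21 ± 0.38, -0.30 ± 0.16, -0.37 ± 0.053 and -0.47 ± 0.060 (SD, n = 3), and only BEC and full did not overlap (exact p = 0.1).

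**Figure D4:**
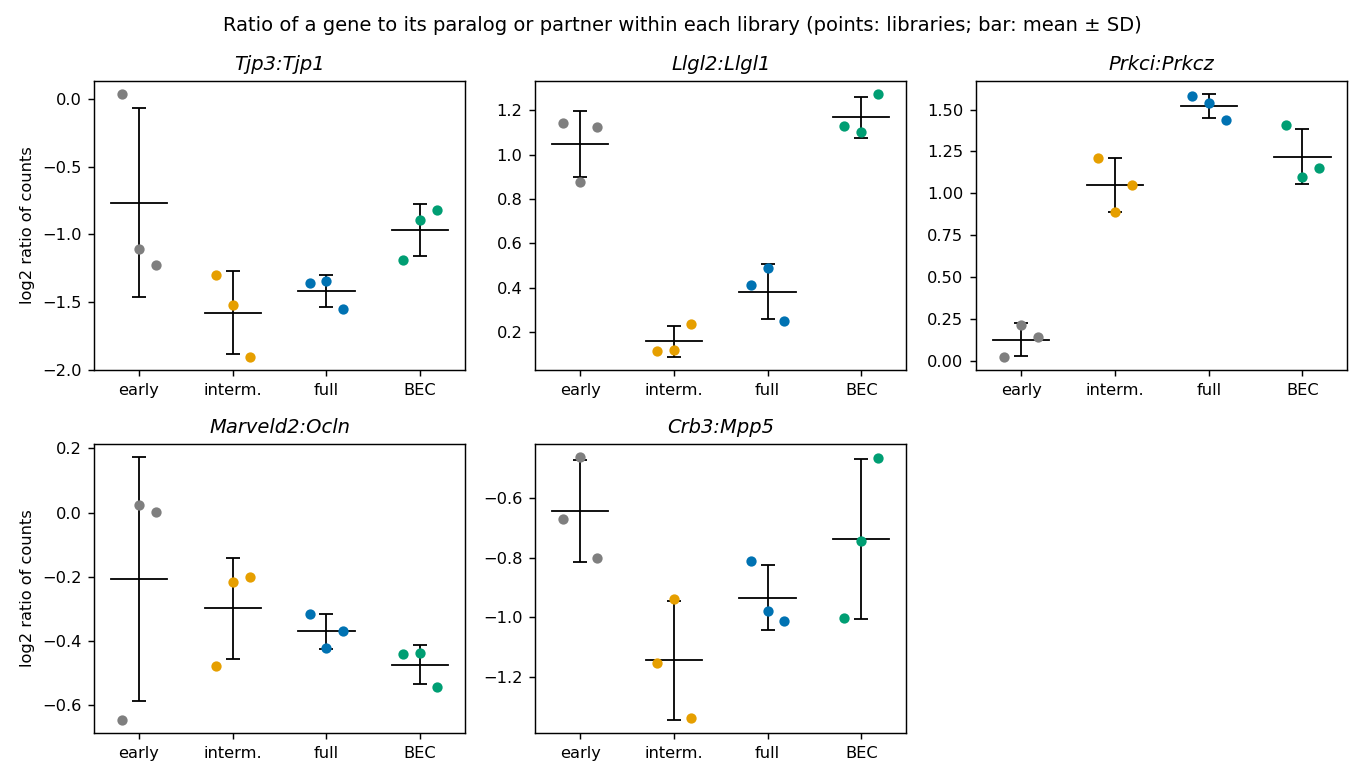
Log2 ratio of counts (y axis) of 5 of the genes to a paralog or partner in the 4 groups, with 1 point per library and the mean ± SD. Llgl2 to Llgl1 is lower in intermediate and full than in early and BEC, and Prkci to Prkcz is lowest in early.

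A wider list of 45 other polarity and junction genes, without the claudins, had 42 above the filter. Of these, 23 rose and 5 fell at the first step, 17 rose and 3 fell at the second, and 9 rose and 7 fell at the third, against 28.7% and 25.7%, 20.8% and 19.8%, and 10.7% and 10.6% of all genes. The medians were 0.48 (0.54 without Ildr1, at the floor in both groups), 0.21 and 0.035. Leaving out 1 library took the first-step falls to 3 (without early replicate 3 or intermediate replicate 1), the third-step rises to 5 (without full replicate 1 or BEC replicate 3) and the third-step falls to 4 (without BEC replicate 2 or 3). With total counts as the scale, 34 rose and 0 fell at the first step. By role, the genes that rose at the first step were 4 of 4 Scribble, 7 of 9 plaque, 4 of 8 Crumbs, 2 of 5 Par, 2 of 5 kinase, 3 of 8 junction membrane and 1 of 3 apical linker genes. Those that fell were 1 Par, 1 plaque, 2 junction membrane and 1 apical linker gene, and the medians of the Par and linker genes were -0.12 and -0.077. The Par gene that fell was Prkcz, with 42.2 ± 4.79, 33.1 ± 4.83, 28.5 ± 1.08 and 47.2 ± 2.98 CPM from early to BEC (SD, n = 3). Its fall was lost without early replicate 1 or 3 or intermediate replicate 1 (edgeR adjusted p up to 0.112). It was also lost with no filter on low counts (0.0756) and with only the 6 libraries compared (0.0531). With total counts as the scale its value was 0.31. From full to BEC, Prkcz was called higher. The plaque gene that fell was Mpdz, a multi-PDZ scaffold (-0.40, edgeR adjusted p 0.00382, but 0.27 with total counts as the scale). Mpdz then rose at the second step and fell at the third (0.68 and -1.16, edgeR adjusted p 9.27e-05 and 1.92e-06). Its levels were 38.3 ± 2.19, 29.1 ± 1.06, 46.5 ± 2.41 and 20.8 ± 2.20 CPM from early to BEC (SD, n = 3). At the second step 3 of 4 Scribble, 5 of 9 plaque, 4 of 8 Crumbs, 2 of 5 Par and 1 each of the kinase, junction membrane and linker genes rose. In the same step 1 Crumbs, 1 junction membrane and 1 linker gene fell. At the third step 2 Crumbs, 1 Par, 2 kinase, 1 plaque, 2 junction membrane and 1 linker gene rose, and 2 plaque, 4 junction membrane and 1 linker gene fell.

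Several paralogs and partners were near the limit of detection in early cells. Amotl1, an angiomotin that binds the Crumbs partner Patj, had 0.957 ± 0.819, 5.28 ± 2.48, 86.9 ± 15.7 and 151 ± 5.80 CPM through the 4 groups. Its rises at the first 2 steps were called (2.46 and 4.05, edgeR adjusted p 0.000794 and 5.06e-07), the first of them 1.89 without early replicate 1 and 3.23 without early replicate 3, and the third (0.80, edgeR adjusted p 0.0445) was lost without early replicate 2, intermediate replicate 2 or any 1 of the full and BEC libraries (adjusted p up to 0.170, without full replicate 3), with DESeq2 (adjusted p 0.396) and with total counts as the scale (edgeR adjusted p 0.0507). Dlg4, a paralog of Dlg1, went from 0.446 ± 0.205 to 3.44 ± 2.25, 22.5 ± 2.76 and 29.9 ± 3.62 CPM, and Pard6g, a paralog of Pard6b, from 0.581 ± 0.422 to 3.64 ± 0.826, 9.09 ± 1.60 and 10.7 ± 0.329 CPM (SD, n = 3). The intermediate libraries of Dlg4 spread from 1.97 to 6.04 CPM, and its first step ranged from 2.26 to 3.30 when 1 library was left out. Mark1, a Par1 kinase, had 0.626 ± 0.395 and 0.933 ± 0.198 CPM in early and intermediate and rose to 6.16 ± 0.260 in full (2.72, edgeR adjusted p 5.00e-06). Mark2, another Par1 kinase, had 79.0 ± 3.50 and 106 ± 3.401 CPM in early and intermediate (0.42, edgeR adjusted p 0.000766). Pard3b, a paralog of Pard3, had 9.57 ± 0.794, 22.9 ± 1.62, 32.6 ± 0.697 and 31.3 ± 0.357 CPM in the 4 groups and rose at the first 2 steps (1.26 and 0.51, edgeR adjusted p 2.57e-07 and 0.000685). Magi3, a plaque scaffold, had 93.8 ± 7.56 CPM in full and 117 ± 3.46 in BEC (0.32, edgeR adjusted p 0.0172), a call lost with no filter on low counts (adjusted p 0.120), without full replicate 1 (0.0895) and without BEC replicate 3 (0.0579).

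Among the linkers that tie the apical membrane to actin, Ezr (ezrin) rose at each step, with 37.1 ± 7.002, 104 ± 7.17, 274 ± 25.8 and 528 ± 21.6 CPM (log2 fold changes 1.49, 1.40 and 0.95; edgeR adjusted p 4.82e-07, 1.52e-06 and 8.77e-05). Rdx (radixin), the related linker of bile canaliculi, had 349 ± 33.7, 331 ± 39.7, 209 ± 18.8 and 141 ± 4.99 CPM (SD, n = 3) and fell at the second step and the third (-0.66 and -0.57, edgeR adjusted p 0.000300 and 0.00175). Its first step gave -0.077 (edgeR adjusted p 0.582), and 0.59 (adjusted p 0.000322) with total counts as the scale. Slc9a3r1 (Nherf1), a PDZ scaffold that binds ezrin, had 319 ± 97.8, 199 ± 27.4, 159 ± 7.21 and 148 ± 20.9 CPM (SD, n = 3). It fell at the first step (-0.68, SE 0.18, edgeR adjusted p 0.00550), with a value of -0.40 without early replicate 3, and the call was lost with total counts as the scale (-0.019, adjusted p 0.938). Among junction membrane proteins, F11r (JAM-A) had 324 ± 10.2, 601 ± 21.0, 655 ± 15.8 and 469 ± 20.9 CPM from early to BEC (SD, n = 3), with called first and last steps of 0.89 and -0.48 (edgeR adjusted p 8.48e-07 and 0.000717).

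**Figure D5:**
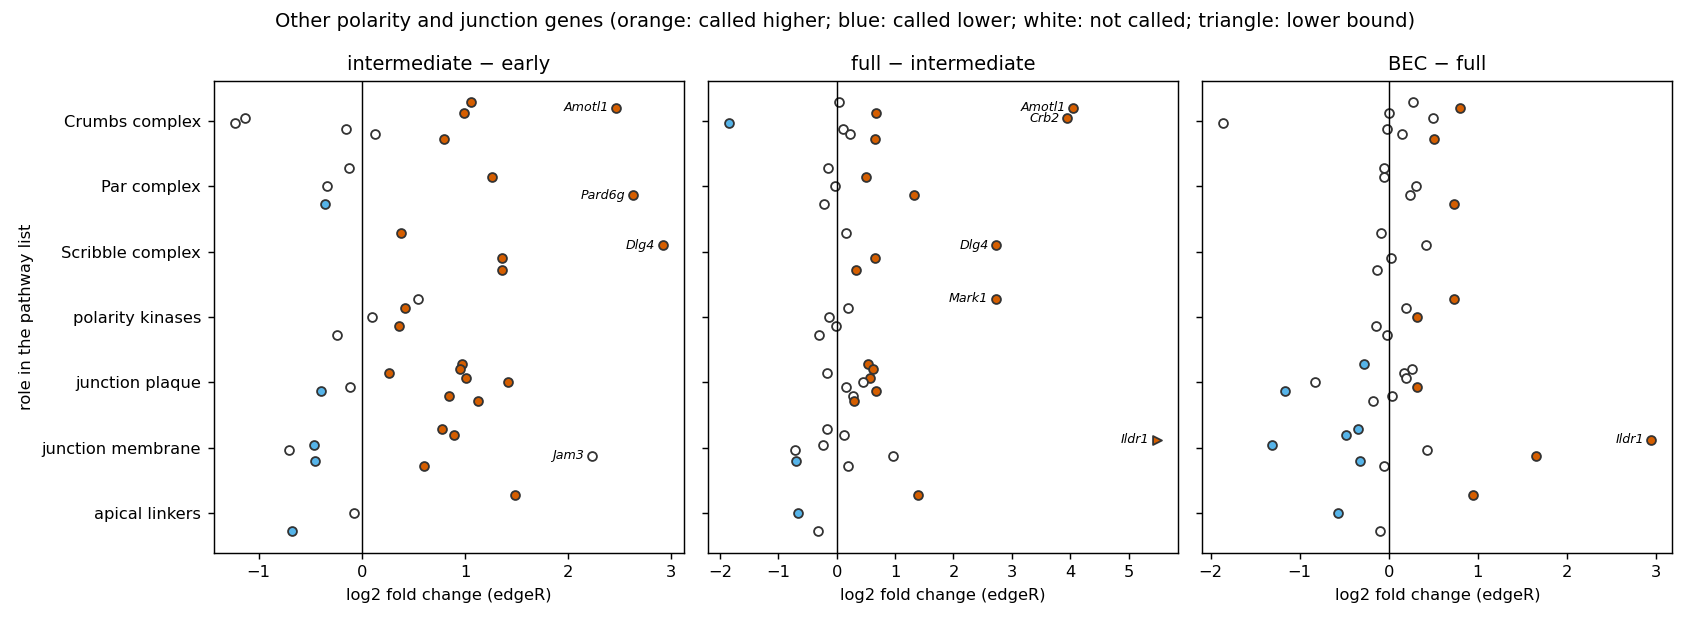
Log2 fold change (x axis, edgeR, TMM scale) of the 42 listed polarity and junction genes above the filter, by role (y axis), at the 3 steps; orange was called higher, blue lower and white not called, and the triangle is a lower bound. Ildr1 is not drawn at the first step, where both groups were at the floor; 23 of 42 genes are orange at the first step, 17 at the second and 9 at the third.

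Over longer spans, full against early called 6 of the 10 genes higher and 0 lower, where 39.1% and 32.1% of all genes were called (71.2% in all); the groups did not overlap for 7 of the 10 and for 74.4% of all genes. BEC against early called 8 higher and 1 (Pard3) lower, where 40% and 33% were called (73.1% in all) and where 9 of the 10 and 74.7% of all genes had no overlap. BEC against intermediate called 7 higher and 1 (Pard3) lower, where 26.3% and 26.2% were called (52.4% in all), with no overlap for 8 of the 10 and 61% of all genes. These comparisons share libraries with the steps and with each other. On the line from the early to the BEC mean in log2 CPM, intermediate stood at 35.1% for Pard6b, 45.2% for Prkci, 28.1% for Llgl2, 67.3% for Scrib and 56.8% for Marveld3, and full at 62.2%, 66.2%, 61.0%, 90.2% and 91.6%. For Tjp3 intermediate stood at 4.86%, but at 26.4% without early replicate 1 and -22.2% without early replicate 3, and full stood at 49.4%. The other 4 genes did not climb from early to BEC in this order: Marveld2 stood past BEC in intermediate and full (108% and 132%), Crb3 was lowest in intermediate, Dlg1 was lowest in full, and Pard3 was highest in early and lowest in BEC.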

How the data were processed

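Per the submitters' processing notes, reads were aligned with STAR 2.7.10b to GRCm39, counted with featureCounts 2.0.1 and processed with DESeq2; strand settings and annotation are not given in the sources used here. The authors deposited whole-number counts per gene for 12 libraries, which were used as they stand; 0 sample columns were left unused, and a second deposited table of normalized values was not used here. The 10 genes and all lists were chosen with earlier results of these data known. Counts were filtered by group (16210 of 53599 genes kept), scaled with TMM factors and tested in edgeR 4.0.16 in 1 fit of 4 groups without a block, with Benjamini-Hochberg adjustment over all genes kept; DESeq2 1.42.0, other scaling, other filters, a replicate block, 6-library fits and leaving out each library were alternatives. Other named genes were those with the largest called change in each direction per role and step among genes of at least 5 CPM, plus the ratio partners.

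Replicates were checked for duplication (chi-square per degree of freedom of counts 5.23 to 54.4). Libraries of the same replicate number deviated together at each of the 3 steps (r from 0.121 to 0.322), so the block was run beside the unpaired tests reported; the titles give the numbers without saying what they mark. In the comparisons over longer spans the lowest r were 0.0442 to 0.096. Simulated counts on the scale of intermediate against early (16210 genes, 200 changed by a log2 fold of 2) gave back 93.5% of the changed genes, with 3.61% of 194 calls false. The simulation gave every gene the same spread. Its change was larger than the first-step change of each gene described here except Marveld3. It therefore does not tell how often changes of the size reported would be found. Ratios used counts plus 0.5. The values of 1 gene of the wider list, and of 1 ratio, are not reported here. A level of 3 counts per library, the floor used for folds against groups at 0, was 0.128 to 0.273 CPM, and it covers counting error only. The reference annotation was GENCODE M21 on GRCm38, so the coordinates given are only those of the RefSeq promoter stretches on their own build; a protein comparison was planned but not run.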

Additional observations from a re-analysis of the deposited data

How the results depend on the processing

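With total counts as the scale, genes called lower fell to 0 among the 10 genes at the first step, in BEC against early and in BEC against intermediate, and to 0, 2 and 4 in the wider list at the first step, in full against early and in BEC against early; genes called higher among the 10 became 8 at the second step and 10 in full against early. The share of calls that were higher went from 52.8% to 85.6% at the first step, 51.2% to 72.6% at the second, 50.1% to 50.3% at the third, 54.9% to 81.8% in full against early, 54.8% to 80.3% in BEC against early and 50.1% to 66.5% in BEC against intermediate. On that scale log2 fold changes turned sign at the first step for Crb3 (0.31), Pard3 (0.63), Dlg1 (0.56), Tjp3 (0.67), Prkcz (0.31), Mpdz (0.27), Magi3 (0.55), Lsr (0.21), Ildr2 (0.20) and Rdx (0.59), at the second for Pard3 (0.16) and Dlg1 (0.16), in full against early for Pard3 (0.79) and Dlg1 (0.73), in BEC against early for Pard3 (0.52), and in BEC against intermediate for Marveld2 (0.16).

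With median-of-ratios factors, 0 of the 10 were called lower in BEC than in full, Dlg1 gave 0.0016 at the second step and Marveld2 0.012 in BEC against intermediate; DESeq2 gave 0.0034 and 0.010. With no filter on low counts, 0 of the 10 were called lower at the first step and the third, and Pard3 (0.0099) and Tjp3 (0.032) turned sign at the first. With only the 6 libraries compared, 3 and 5 genes of the wider list were called lower at the first and second steps. The replicate block, used because same-numbered libraries deviated together at the 3 steps, gave 9274, 7300 and 4096 calls over all genes at the 3 steps, against 8817, 6590 and 3445 without it; of the 10 genes it changed the calls of Tjp3 alone, which at the first step was 0.012.

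Leaving out 1 library at a time gave 0 to 1 of the 10 genes lower at the first step, 3 to 6 higher at the second (3 without full replicate 1 or 2) and 0 to 1 lower at the third. In the wider list it gave 3 to 6 lower at the first step, and 5 to 9 higher (5 without full replicate 1 or BEC replicate 3) and 4 to 8 lower at the third. First-step ranges that crossed 0 were -0.11 to 0.022 for Pard3, -0.20 to 0.34 for Tjp3, -0.15 to 0.020 for Rdx, -0.0038 to 0.24 for Mpp5 and -2.89 to 0 for Ildr1, which rests on 1 count. The ratio of Marveld2 to Ocln ranged from -0.31 to 0.023 at the first step and that of Tjp3 to Tjp1 from -0.0044 to 0.30 at the second. Where a value changed with a setting, the cause was not tested beyond the scale or the number of libraries that the setting itself changed. The places of intermediate and full between early and BEC without 1 library were an alternative chosen after seeing the data. Depth limits Marveld3, Amotl1, Dlg4, Pard6g and Mark1 in early cells and Ildr1 in early and intermediate cells.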

Other observations

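Across the 12 libraries, the genes whose log2 CPM followed Marveld3 most closely were Aplp1 (Pearson r 0.999), D630003M21Rik (0.997) and Rab8b (0.997), and those most like Pard6b were Atp2b4 (0.993), Fgfr3 (0.99) and Pwwp2b (0.99). These are descriptions over 12 libraries that fall into 4 groups and share their scaling. From early to BEC, Aplp1 had 0.594, 6.74, 33.7 and 49.5 CPM, beside 1.28, 10.9, 39.1 and 53.3 CPM for Marveld3. Fgfr3, a fibroblast growth factor receptor, went from 68.98 to 196, 489 and 1089 CPM, and Atp2b4, a plasma membrane calcium pump, from 0.359 to 2.42, 8.95 and 46.2 CPM.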
